A study of Mus musculus with 6 samples.

Results

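A set of 10 genes transcribed around the central vein of the liver lobule under Wnt/β-catenin control was examined in livers lacking the lysosomal transporter gene *Spns1*. They are the 10 rows of the deposited gene table with the symbols *Glul*, *Oat*, *Axin2*, *Lgr5*, *Tbx3*, *Rnf43*, *Znrf3*, *Rhbg*, *Slc1a2* and *Cyp1a2*, out of 54532 genes listed. They were chosen by name as known targets of this zone, with earlier results of these data known. All 10 were among the 15449 genes with enough counts to be tested. Of these 10 genes, *Tbx3* and *Oat* were lower in the *Spns1*-deleted livers, none was higher, and 8 did not pass the test. Of all tested genes 20.5% were called lower and 21.3% higher, so the share of the 10 called lower was about that of all genes. The *Tbx3* call held in all 13 alternative analyses, and the *Oat* call in only 6 of 13.

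RNA-Seq compared the livers of 3 g*Spns1*-cKO mice with those of 3 control mice, with 1 library per mouse, on the C57BL/6 background. The g*Spns1*-cKO mice had both *Spns1* alleles floxed at exon 3 and carried a tamoxifen-inducible Cre (Cre-ERT2) at Rosa26, and they received 50 mg/kg tamoxifen by intraperitoneal injection at P11, P13 and P15. Because Rosa26 is active in most cell types, the deletion was not restricted to hepatocytes. The controls were floxed littermates lacking Cre by the study's methods, while the sample labels name them wild type, and whether they received tamoxifen, the sex of the mice and their age when these livers were taken were not given in the sources used here.

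In the liver lobule, endothelial cells of the central vein secrete Wnt2, Wnt9b and R-spondin 3. Nearby hepatocytes then stabilize β-catenin, which with TCF/LEF factors turns on glutamine synthesis, ammonium and glutamate transport and part of the cytochrome P450 system. Among the targets are regulators of the pathway itself: *Axin2* encodes a scaffold of the complex that degrades β-catenin, *Rnf43* and *Znrf3* encode ubiquitin ligases that remove Frizzled receptors from the membrane, and *Lgr5* encodes a receptor for R-spondins, which hold those ligases back.

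The libraries held between 30350002 and 35295611 counts. Levels are given in CPM, which are counts over the TMM-scaled library total, and means carry the SD over the 3 mice in each group. A floor of 3 counts corresponded to between 0.0763 and 0.119 CPM. The scaling weighs on every level and difference here, because the TMM factors were 0.834 to 0.873 in the control libraries and 1.16 to 1.18 in the g*Spns1*-cKO libraries. Without TMM, with library size only, the median log2 fold change of all tested genes moved from 0.014 to 0.46. *Spns1* itself had 1008, 1562 and 875 counts in the control libraries and 642, 1175 and 698 in the g*Spns1*-cKO libraries. Its level was 40.4 ± 8.98 CPM (n = 3) in control and 22.1 ± 7.40 CPM (n = 3) in g*Spns1*-cKO livers, and the log2 fold change was -0.87 (SE 0.25, edgeR adjusted p = 0.0300). The call on *Spns1* was lost without control replicate 2 (-0.68), without g*Spns1*-cKO replicate 1 (-0.74) or without g*Spns1*-cKO replicate 3 (-0.74), with library size only (-0.43) and with upper-quartile scaling (-0.74). The deposited value is a count over the whole gene and does not show whether exon 3 was read. Y-linked transcripts were counted in all 6 libraries, with at least 324 counts for each of 4 genes, and *Xist* had at most 5.

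Sequences just upstream of the transcription start are shown for 3 genes that bear on the comparison: *Oat*, lower in g*Spns1*-cKO livers, *Slc1a2*, which did not pass the test, and *Sp5*, a Wnt target outside the 10 genes that was lower. Each run is the 250 bases before the RefSeq start in GRCm38.p6, 5′ to 3′ on the gene's strand. Capitals mark the core of the TCF/LEF site, CTTTGA, on either strand, so that TCAAAG is the same core on the opposite strand.
Oat (chr7:132576399-132576648, minus strand): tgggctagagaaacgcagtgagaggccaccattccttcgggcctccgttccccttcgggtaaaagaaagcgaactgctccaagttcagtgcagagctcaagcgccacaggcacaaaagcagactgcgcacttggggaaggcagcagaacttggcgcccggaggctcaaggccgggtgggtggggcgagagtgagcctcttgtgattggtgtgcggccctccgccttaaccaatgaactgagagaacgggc
Slc1a2 (chr2:102706188-102706437, plus strand): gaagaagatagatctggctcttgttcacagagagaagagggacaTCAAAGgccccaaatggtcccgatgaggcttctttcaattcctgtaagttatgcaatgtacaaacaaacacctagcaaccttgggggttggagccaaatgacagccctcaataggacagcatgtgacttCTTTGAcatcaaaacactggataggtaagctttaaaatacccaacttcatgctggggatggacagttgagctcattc
Sp5 (chr2:70474673-70474922, plus strand): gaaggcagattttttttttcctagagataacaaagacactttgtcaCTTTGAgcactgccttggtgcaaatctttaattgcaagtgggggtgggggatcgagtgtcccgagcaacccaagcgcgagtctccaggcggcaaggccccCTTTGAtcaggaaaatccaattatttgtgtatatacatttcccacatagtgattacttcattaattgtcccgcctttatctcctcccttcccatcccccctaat

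The *Oat* window lies inside the span of *Fgfr2*, the *Slc1a2* window lies inside the annotated span of *Slc1a2* itself at a downstream start, and the *Sp5* window lies directly before the gene. The *Slc1a2* window holds CTTTGA 206 and 77 bases upstream of the start and the *Sp5* window 204 and 104 bases upstream, whereas the *Oat* window holds none. The core was present in 13.8% of the 32851 promoter windows of this length. RefSeq entries were matched for 6 of the 10 genes, and 2 of those 6, *Slc1a2* and *Cyp1a2*, had a match. *Lgr5*, *Tbx3*, *Znrf3* and *Rhbg* were not matched. These matches describe letters only.

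Across the 10 genes, 0 were higher and 2 were lower at an adjusted p under 0.05 (edgeR quasi-likelihood test, adjusted over all genes tested). Of all tested genes 41.8% were called, 21.3% higher and 20.5% lower. The 2 lower genes of 10 are thus about the share found among all genes. The median log2 fold change of the 10 genes was -0.17, against 0.014 over all tested genes. For 2 of the 10 genes the 3 libraries of one group all lay below those of the other, both times the g*Spns1*-cKO group. Of all tested genes 54.1% had groups that did not overlap, 26.9% with g*Spns1*-cKO below and 27.1% with g*Spns1*-cKO above. With library size only, 2 of the 10 (*Axin2* and *Znrf3*) were higher and 1 (*Tbx3*) was lower. *Tbx3* was the one gene of the 10 that was called in all 13 alternative analyses.

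**Figure D1:**
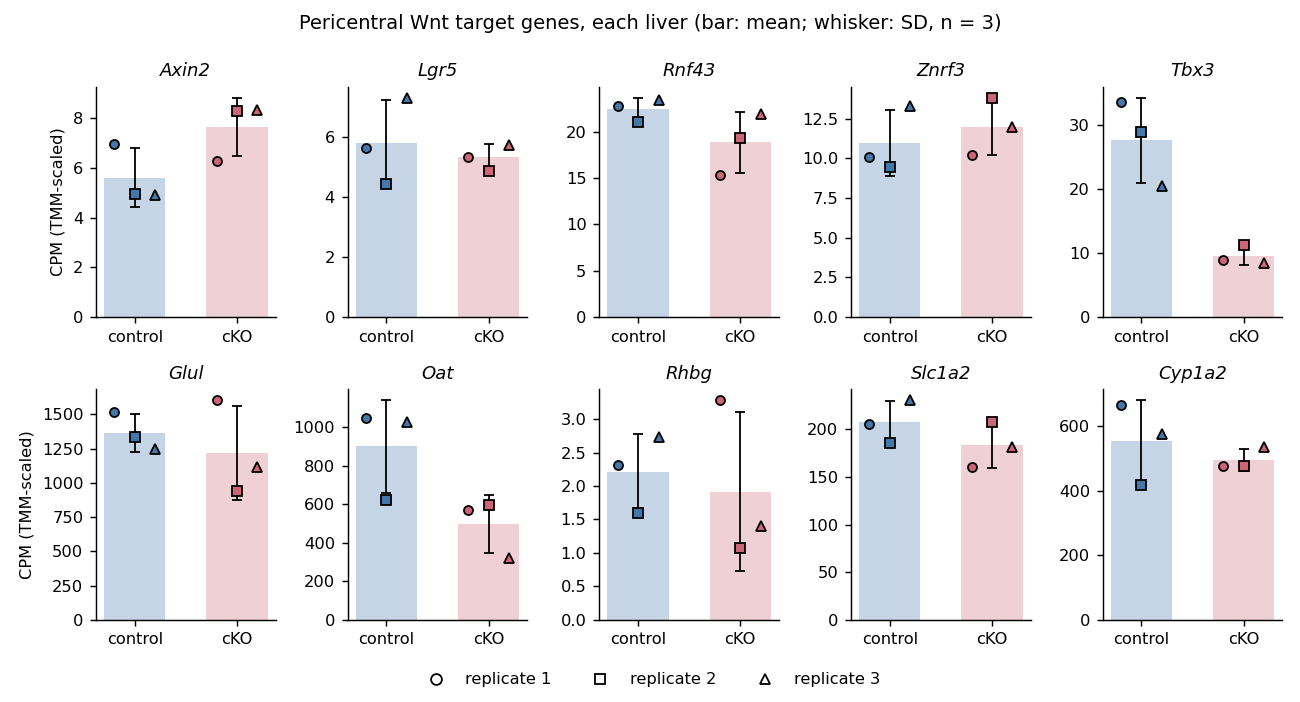
CPM of each of the 10 genes (TMM-scaled, linear axes from 0) in control and g*Spns1*-cKO (cKO) livers, with bars for the mean of 3 mice, whiskers for the SD and 1 symbol per replicate. *Tbx3* (20.4 to 33.5 against 8.50 to 11.2 CPM) and *Oat* (624 to 1051 against 322 to 597 CPM) are the 2 genes whose groups do not overlap.

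The regulators of the pathway did not pass the test. *Axin2* (chromosome 11, 108920349-108950783, plus strand, GRCm38) was at 6.97, 4.94 and 4.90 CPM in the control livers and at 6.28, 8.31 and 8.34 CPM in the g*Spns1*-cKO livers. The first control liver lay inside the g*Spns1*-cKO range, so the groups overlapped, while the other two controls lay below every g*Spns1*-cKO liver. The means were 5.60 ± 1.19 and 7.65 ± 1.18 CPM (n = 3 each), a log2 fold change of 0.45 (SE 0.20, 95% interval 0.010 to 0.89) that did not pass the test in edgeR (adjusted p = 0.0928). It passed without control replicate 1 (0.62, edgeR adjusted p = 0.0389), without g*Spns1*-cKO replicate 1 (0.57, edgeR adjusted p = 0.0449), with library size only (0.89) and with upper-quartile scaling (0.58). *Axin2* is widely used as a readout of β-catenin activity. It had the highest fold change of the 10 genes in all 13 alternatives, which reuse the same libraries, and it was called in 4 of them. Whether β-catenin activity differed was not tested.

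*Lgr5* (chromosome 10, 115450311-115587780, minus strand) was at 5.62, 4.45 and 7.31 CPM in control and at 5.34, 4.87 and 5.75 CPM in g*Spns1*-cKO livers. All g*Spns1*-cKO values lay within the control range, and the log2 fold change of -0.12 (SE 0.21) had a 95% interval from -0.58 to 0.34. *Rnf43* (chromosome 11, 87662722-87735539, plus strand) was at 22.8, 21.01 and 23.4 CPM in control livers and at 15.3, 19.3 and 21.9 CPM in g*Spns1*-cKO livers. The first 2 g*Spns1*-cKO livers lay below every control and the third did not, and the log2 fold change of -0.25 (95% interval -0.56 to 0.060) did not pass the test (edgeR adjusted p = 0.177). *Znrf3* (chromosome 11, 5276324-5444847, minus strand), the partner of *Rnf43* in receptor removal, was at 10.1, 9.48 and 13.3 CPM in control and at 10.2, 13.8 and 12.0 CPM in g*Spns1*-cKO livers. These values overlapped, with a log2 fold change of 0.13 (95% interval -0.24 to 0.51). *Znrf3* passed with library size only, at 0.58, where the median of all genes was itself 0.46.

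*Tbx3* showed the largest difference of the 10 genes. It encodes a T-box transcription factor that is enriched in pericentral hepatocytes and lies at chromosome 5, 119670669-119684724, plus strand. The control livers held 941, 889 and 516 counts, or 33.5, 28.9 and 20.4 CPM. The g*Spns1*-cKO livers held 320, 429 and 334 counts, or 8.90, 11.2 and 8.50 CPM. Every g*Spns1*-cKO liver was below every control, with the lowest control at 20.4 and the highest g*Spns1*-cKO at 11.2 CPM. The mean fell from 27.6 ± 6.63 to 9.52 ± 1.45 CPM (n = 3 each), a log2 fold change of -1.53 (SE 0.19, 95% interval -1.96 to -1.11, edgeR adjusted p = 0.000244), or 2.90-fold lower. Across the 13 alternatives the value lay between -1.72 and -1.09.

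The antisense gene *Tbx3os1* shares 697 bases with *Tbx3*, and the strand setting of the counting was not given in the sources used here, so reads in that stretch cannot be assigned to either strand with certainty. *Tbx3os1* had 232, 273 and 212 counts in control and 67, 108 and 88 in g*Spns1*-cKO livers. It fell as well, with a log2 fold change of -1.88 (SE 0.20, edgeR adjusted p = 7.42e-05). *Tbx3os1* held fewer counts than *Tbx3* in every library. Of 6 other T-box genes listed, 2 were tested and both were higher: *Tbx20* went from 1.97 to 13.3 CPM (log2 fold change 2.75, edgeR adjusted p = 4.51e-05) and *Tbx2*, the closest relative of *Tbx3*, from 4.17 to 6.69 CPM (0.68, edgeR adjusted p = 0.00705).

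**Figure D2:**
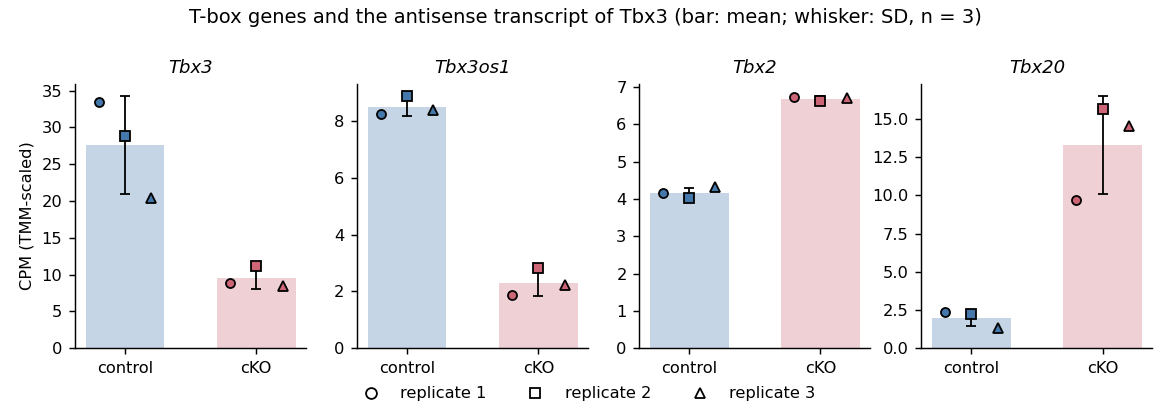
CPM (TMM-scaled) of *Tbx3*, its antisense neighbour *Tbx3os1*, *Tbx2* and *Tbx20*, with bars for the mean of 3 livers, whiskers for the SD and 1 symbol per replicate. *Tbx3* and *Tbx3os1* are lower in all 3 g*Spns1*-cKO livers than in any control, and *Tbx2* and *Tbx20* are higher in all 3.

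The genes of glutamine, glutamate and ammonium handling differed among themselves. *Glul* encodes glutamine synthetase, which takes up ammonium in the last hepatocytes before the central vein and is among the best known β-catenin targets of the liver. It lies at chromosome 1, 153899944-153909723, plus strand. The control livers were at 1515, 1338 and 1245 CPM and the g*Spns1*-cKO livers at 1603, 940.3 and 1116 CPM. The first g*Spns1*-cKO liver was the highest of all 6 and the other two were the lowest, so the groups overlapped across the whole control range. The log2 fold change was -0.16 (SE 0.20) and its 95% interval ran from -0.61 to 0.28 (edgeR adjusted p = 0.547).

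*Oat* encodes ornithine aminotransferase, a mitochondrial enzyme that links ornithine to glutamate. The control livers held 29550, 19220 and 25969 counts, or 1051, 624 and 1026 CPM, and the g*Spns1*-cKO livers 20489, 22906 and 12652 counts, or 570, 597 and 322 CPM. The groups did not overlap, but the second control and the second g*Spns1*-cKO liver were close. In scaling by library size only the groups overlapped. The mean was 900.5 ± 239.6 CPM in control and 496 ± 152 CPM in g*Spns1*-cKO livers (n = 3 each), with a log2 fold change of -0.86 (SE 0.28, 95% interval -1.50 to -0.22, edgeR adjusted p = 0.0368). The call held in 6 of 13 alternatives. It was lost without control replicate 1 (-0.75), control replicate 3 (-0.77), g*Spns1*-cKO replicate 1 (-0.97) or g*Spns1*-cKO replicate 3 (-0.63), with library size only (-0.41) and with upper-quartile scaling (-0.73), among others. *Oat* (chromosome 7, 132557478-132576398, minus strand) lies on the same strand inside *Fgfr2*, a growth factor receptor gene that was higher in g*Spns1*-cKO livers (30.1 to 44.8 CPM, log2 fold change 0.58, edgeR adjusted p = 0.00786).

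*Rhbg* encodes an ammonium transporter of the hepatocyte membrane and lies at chromosome 3, 88242874-88254709, minus strand. Its counts were low, 65, 49 and 69 in control and 118, 41 and 55 in g*Spns1*-cKO livers, which is 2.31, 1.59 and 2.73 against 3.28, 1.07 and 1.40 CPM. One g*Spns1*-cKO liver was above and the other two were below all controls. The protein-coding gene *Gm38392*, with a mean count of 0, overlaps *Rhbg* on the same strand. How this overlap bears on the *Rhbg* counts was not tested. The 95% interval of the log2 fold change of -0.21 was the widest of the 10 genes, from -1.14 to 0.73, so a 2-fold decrease could not be told from no difference at this depth and spread. *Slc1a2* (chromosome 2, 102658659-102790784, plus strand) encodes the glutamate transporter GLT-1, which in liver is restricted to the same pericentral cells. It was at 206, 186 and 230 CPM in control and at 161, 207 and 181 CPM in g*Spns1*-cKO livers. The groups overlapped, with a log2 fold change of -0.18 (SE 0.14, 95% interval -0.48 to 0.12).

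*Cyp1a2* (chromosome 9, 57676937-57683703, minus strand) encodes a cytochrome P450 that metabolizes caffeine and aromatic amines and is also a target of the aryl hydrocarbon receptor. It was at 667, 417 and 577 CPM in control and at 478, 476 and 535 CPM in g*Spns1*-cKO livers. All g*Spns1*-cKO values lay within the control range, and the log2 fold change was -0.16 (SE 0.18, 95% interval -0.55 to 0.23, edgeR adjusted p = 0.504). For *Glul*, *Lgr5*, *Rnf43*, *Znrf3*, *Slc1a2*, *Cyp1a2* and *Axin2*, 7 of the 10 genes, the 95% interval excluded a 2-fold decrease.

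**Figure D3:**
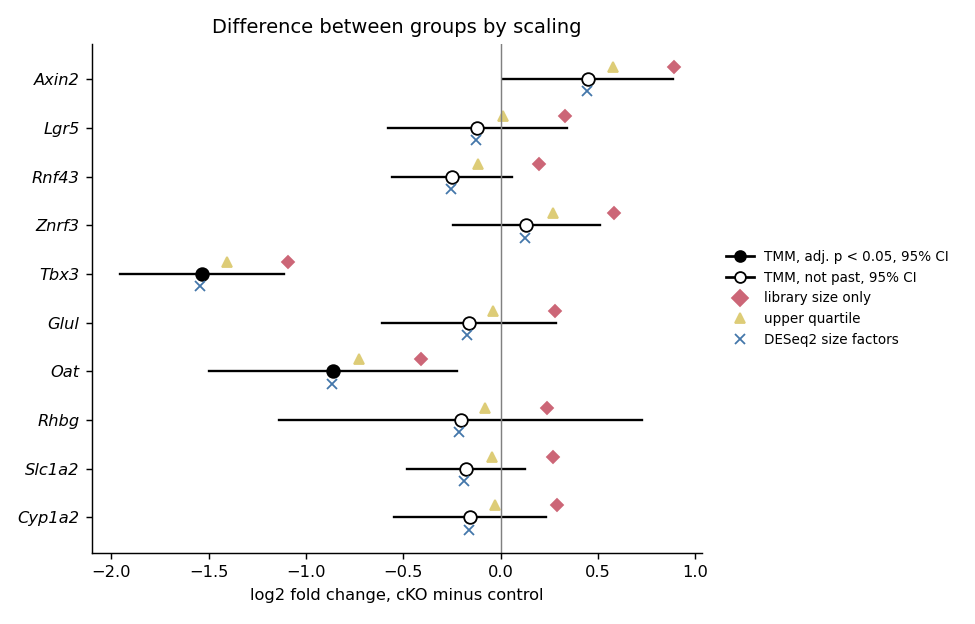
Log2 fold change (g*Spns1*-cKO minus control) of each of the 10 genes, with circles and 95% intervals for edgeR with TMM (filled where the gene passed the test), diamonds for library size only, triangles for upper-quartile scaling and crosses for DESeq2. *Tbx3* lies below 0 with every scaling (-1.09 with library size only), *Axin2* above 0 with every scaling, and the diamonds of *Glul*, *Lgr5*, *Rnf43*, *Rhbg*, *Slc1a2* and *Cyp1a2* lie on the other side of 0 from their circles.

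Single livers did not stand out in one direction over the 10 genes. The first g*Spns1*-cKO liver had the highest *Glul* and *Rhbg* of all 6 livers and, among the g*Spns1*-cKO livers, the lowest *Axin2*, *Rnf43*, *Znrf3* and *Slc1a2*. Of the 10 genes, *Glul* and *Rhbg* were thus highest and the 4 others lowest in the same g*Spns1*-cKO liver.

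Per transcript length, in the deposited FPKM, the 10 genes spanned about the same range in both groups. In control livers *Oat* (median 433 FPKM) and *Glul* (402 FPKM) were at the top and overlapped, *Cyp1a2* followed at 286 FPKM and *Slc1a2* at 15.4 FPKM. *Tbx3* (4.35 FPKM) and *Rnf43* (3.41 FPKM) overlapped, as did *Znrf3* (1.25 FPKM), *Rhbg* (1.17 FPKM) and *Axin2* (0.894 FPKM), and *Lgr5* was lowest at 0.538 FPKM without overlapping *Axin2*. In g*Spns1*-cKO livers *Glul* led at a median of 332 FPKM, and *Oat* (238 FPKM) overlapped *Cyp1a2* (234 FPKM). *Tbx3* went from the fifth to the eighth place, at 1.33 FPKM, where it overlapped *Rhbg* (0.714 FPKM) and *Axin2* (1.48 FPKM).

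The upstream side of the pathway was read from lists of its other genes. Of 19 Wnt ligand genes, 7 were tested, 2 were higher and 0 lower. The central vein ligands did not pass the test: *Wnt2* was at 3.59, 2.21 and 2.69 CPM in control and 3.47, 2.24 and 3.10 CPM in g*Spns1*-cKO livers, and *Wnt9b* at 1.49, 0.877 and 1.70 against 0.973, 1.28 and 1.45 CPM. The groups overlapped for both, with log2 fold changes of 0.056 (edgeR adjusted p = 0.882) and -0.13 (edgeR adjusted p = 0.79). *Wnt4*, which is known mainly for signaling that does not pass through β-catenin, rose from 2.92 to 10.9 CPM (log2 fold change 1.90, SE 0.25, edgeR adjusted p = 0.000339). *Wnt5a*, the best known ligand of the β-catenin-independent branch, rose from 1.29 to 4.12 CPM (1.66, SE 0.35, edgeR adjusted p = 0.00418). *Wnt5b* (10.7 and 8.58 CPM), *Wnt2b* (1.00 and 1.06 CPM) and *Wnt9a* (0.857 and 0.535 CPM) did not pass.

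*Wls*, the carrier that brings Wnt proteins to the cell surface, was at 4.41, 4.22 and 3.99 CPM in control and at 23.5, 17.0 and 20.7 CPM in g*Spns1*-cKO livers. Each g*Spns1*-cKO value was above every control, and the log2 fold change was 2.28 (SE 0.16, edgeR adjusted p = 7.35e-06). *Porcn*, which adds the lipid to Wnt proteins, did not pass (4.35 and 3.60 CPM). Of 4 R-spondin genes, 2 were tested. *Rspo3* was at 6.51, 3.64 and 4.66 CPM in control and at 7.34, 9.64 and 9.64 CPM in g*Spns1*-cKO livers. The groups did not overlap and its log2 fold change was 0.85 (SE 0.22, edgeR adjusted p = 0.0118), while *Rspo1* (0.791 and 0.625 CPM) did not pass.

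Among 17 receptor genes other than *Lgr5*, 13 were tested, 1 was higher and 5 were lower, with a median log2 fold change of 0.12. With library size only the split was 5 higher and 1 lower, and with upper-quartile scaling 2 and 2. The number lower was 2 without control replicate 3 and 3 without g*Spns1*-cKO replicate 3, and the number higher was 2 without control replicate 2. *Lgr4*, the more widely expressed relative of *Lgr5*, fell from 62.0 to 36.9 CPM (log2 fold change -0.75, SE 0.10, edgeR adjusted p = 0.000364). *Fzd7* fell from 18.7 to 12.0 CPM (-0.64, edgeR adjusted p = 0.00242), a call lost with library size only (-0.20). The coreceptors moved in opposite directions: *Lrp5* rose from 47.4 to 77.7 CPM (0.71, edgeR adjusted p = 0.00147), and *Lrp6* fell from 78.6 to 60.8 CPM (-0.37, edgeR adjusted p = 0.0186). The *Lrp6* call was lost without control replicate 3 (-0.36) or g*Spns1*-cKO replicate 3 (-0.36) and with upper-quartile scaling (-0.24). Its direction turned with library size only (0.076). *Fzd4* and *Fzd5* were the other genes called lower. *Fzd5* (-0.49, edgeR adjusted p = 0.0476) was called in only 2 of 13 alternatives, limma-voom and the fit without g*Spns1*-cKO replicate 1 (-0.61), and over the 6 fits that left out 1 library it lay between -0.61 and -0.38. *Fzd4* turned with library size only as well (0.036), and it lost its call without control replicate 3 (-0.38) or with upper-quartile scaling (-0.28).

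Of 25 intracellular components, 24 were tested, 5 were higher and 3 were lower, with a median log2 fold change of 0.073. With library size only 17 were higher and 0 lower, and with upper-quartile scaling 8 were higher. The number higher was 3 without control replicate 1 or control replicate 3, and 2 without g*Spns1*-cKO replicate 3. *Csnk1e*, a casein kinase that acts on Dishevelled, rose from 4.93 to 11.4 CPM (1.21, edgeR adjusted p = 0.00041), and *Bcl9*, a coactivator of β-catenin, from 3.08 to 6.43 CPM (1.06, edgeR adjusted p = 0.00336). *Ctnnbip1*, which blocks the binding of β-catenin to TCF factors, fell from 11.4 to 6.73 CPM (-0.75, edgeR adjusted p = 0.00805), again not with library size only (-0.31). *Ctnnb1*, which encodes β-catenin, was at 116, 124 and 125 CPM in control and at 155, 141 and 163 CPM in g*Spns1*-cKO livers. The groups did not overlap and the log2 fold change was 0.33 (edgeR adjusted p = 0.0332), but the call was lost in 5 of the 6 fits that left out 1 library. The exception was the fit without g*Spns1*-cKO replicate 2, and over the 6 fits the value lay between 0.28 and 0.39. The *Ctnnb1* call was also lost with the replicate block (0.33) and with at least 1 count in any library (0.32). *Csnk1a1*, the other abundant gene of this list, did not pass (118 and 134 CPM).

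Of 15 secreted inhibitors and their receptors, 6 were tested, 3 were higher and 1 was lower. Without any 1 of the control replicates 5 of 8 tested were higher, and without control replicate 1 there were 2 lower. *Frzb* rose from 1.62 to 6.43 CPM (1.99, edgeR adjusted p = 6.09e-05) and *Dkk3* from 4.54 to 17.8 CPM (1.97, edgeR adjusted p = 1.4e-05). *Notum*, a Wnt-removing hydrolase that is itself a β-catenin target in pericentral hepatocytes, was at 24.9, 23.5 and 25.4 CPM in control and at 29.7, 35.3 and 31.5 CPM in g*Spns1*-cKO livers. These values did not overlap (0.39, edgeR adjusted p = 0.016), although the call was lost without control replicate 2 (0.35) or g*Spns1*-cKO replicate 2 (0.31). *Dkk4*, also a β-catenin target, had 26, 19 and 12 counts in control and 0, 0 and 0 in g*Spns1*-cKO livers (edgeR adjusted p = 0.000693). Against a floor of 3 counts in each library it was at least 5.69-fold lower. *Kremen1* (18.6 and 14.8 CPM) did not pass.

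Further Wnt targets outside the 10 genes were more often higher than lower, but not all in one direction. Of 12 listed, 10 were tested, 7 were higher and 2 were lower, with a median log2 fold change of 0.62. Over all tested genes 21.3% were higher and 20.5% lower, with a median of 0.014. The number higher was 4 without control replicate 2. *Notum*, *Dkk4*, *Tcf7*, *Lef1* and *Apcdd1* stand in 2 of these lists, so the list counts are not separate. Other lists below share genes as well, among them *Cps1*, *Gls2*, *Alb*, *Sox9* and *Ahr*. *Ccnd1*, which encodes cyclin D1, was at 14.2, 10.9 and 7.67 CPM in control and at 91.8, 48.5 and 80.3 CPM in g*Spns1*-cKO livers, with all g*Spns1*-cKO values above all controls (2.75, SE 0.32, edgeR adjusted p = 0.00119). *Nkd2*, a feedback inhibitor, rose from 0.266 to 1.14 CPM (2.10, edgeR adjusted p = 0.00936) on few counts, 3 to 13 per control library. *Sp5*, whose upstream window with 2 TCF/LEF cores is printed above, was at 2.49, 2.31 and 2.73 CPM in control and at 1.11, 1.20 and 1.15 CPM in g*Spns1*-cKO livers. It fell in every g*Spns1*-cKO liver below every control (-1.12, SE 0.25, edgeR adjusted p = 0.00521).

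**Figure D4:**
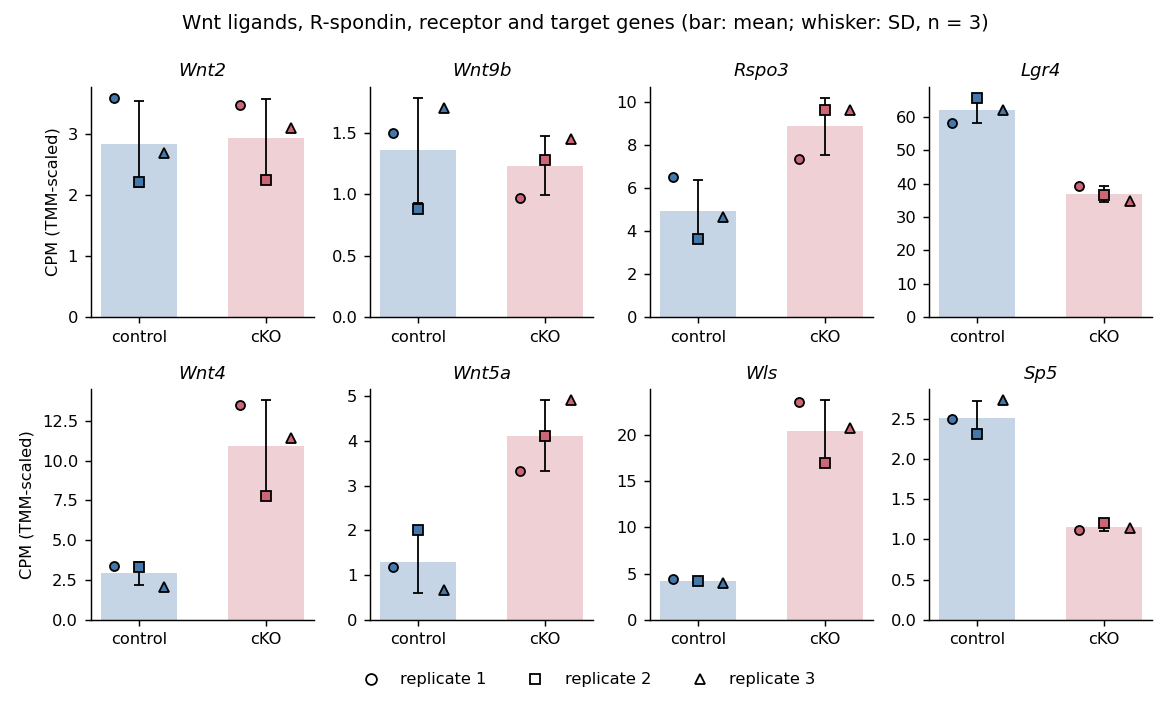
CPM (TMM-scaled) of *Wnt2*, *Wnt9b*, *Rspo3*, *Lgr4*, *Wnt4*, *Wnt5a*, *Wls* and *Sp5*, with bars for the mean of 3 livers, whiskers for the SD and 1 symbol per replicate. The groups overlap for *Wnt2* and *Wnt9b*, the g*Spns1*-cKO livers are all higher for *Rspo3*, *Wnt4*, *Wnt5a* and *Wls*, and they are all lower for *Lgr4* and *Sp5*.

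Metabolic genes of both lobular zones were lower in part. Of 23 other pericentral genes all were tested, 1 was higher and 10 were lower, with a median log2 fold change of -0.48. *Slc22a3* fell from 7.28 to 1.62 CPM (-2.17, edgeR adjusted p = 0.000109), *Aldh1a1*, a retinal dehydrogenase, from 1315 to 352 CPM (-1.90, edgeR adjusted p = 7.75e-05), and *Rgn* from 1228 to 601 CPM (-1.03, edgeR adjusted p = 0.00271). *Slc22a3* overlaps the far more abundant *Plg* on the opposite strand, so its counts are uncertain. *Cyp2e1*, the ethanol-inducible cytochrome P450, was at 8276, 6983 and 9132 CPM in control and at 2931, 6399 and 4409 CPM in g*Spns1*-cKO livers. The groups did not overlap (-0.83, SE 0.26, edgeR adjusted p = 0.0296), but the call was lost without control replicate 1 (-0.83), control replicate 3 (-0.75) or g*Spns1*-cKO replicate 3 (-0.80), with library size only (-0.38) and with upper-quartile scaling (-0.69). *Slc13a3* was the only one called higher (26.1 to 52.5 CPM, 1.01, edgeR adjusted p = 0.00137), and *Cyp3a11* just missed the threshold (2142 and 3071 CPM, 0.52, edgeR adjusted p = 0.0518), but it passed in 8 of 13 alternatives, with either other scaling (0.96 and 0.65), DESeq2, both other filters, limma-voom and without control replicate 1 (0.71) or g*Spns1*-cKO replicate 1 (0.57). With library size only, 5 genes of this list were higher and 4 lower. The number higher was 3 without control replicate 1, 2 without control replicate 3 and 4 without g*Spns1*-cKO replicate 1.

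Of 26 periportal genes, which belong to the opposite end of the lobule, all were tested, 4 were higher and 12 were lower, with a median log2 fold change of -0.24. *Cyp2f2*, a cytochrome P450 of that zone, fell from 954 to 252 CPM (-1.92, edgeR adjusted p = 0.0178). Its call was lost without g*Spns1*-cKO replicate 3 (-1.85) or with at least 1 count in any library (-1.93). *Alb*, which encodes albumin, fell (-0.73, edgeR adjusted p = 0.0101), though not past the threshold with library size only (-0.28), and *Cps1*, which uses ammonium for the urea cycle, did not pass (2833 and 3633 CPM, 0.36) except with library size only (0.80), upper-quartile scaling (0.49) and DESeq2 (0.35). *Cdh1* rose from 22.9 to 100.3 CPM (2.13) and *Hsd17b6* from 72.7 to 289.9 CPM (2.00). The other genes called higher were *Gldc* (0.64) and *Sox9* (1.64), which also stands among the cholangiocyte markers below. The summed level of those markers was higher too, and its part in these rises was not tested. Without g*Spns1*-cKO replicate 3 the number lower was 7. The median of this list turned to 0.20 with library size only. Both zonal lists thus had medians below that of all genes with TMM scaling, and with library size only as well (-0.034 and 0.20 against 0.46). Of all tested genes 20.5% were called lower. Whether one moved further than the other was not tested.

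**Figure D5:**
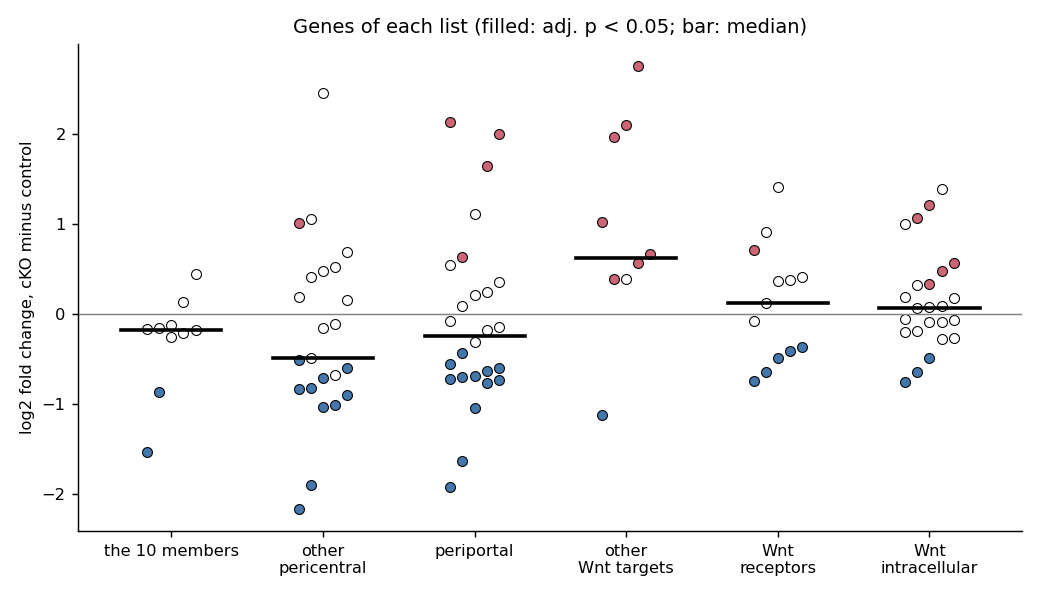
Log2 fold change (g*Spns1*-cKO minus control, edgeR with TMM) of the tested genes of 6 lists, 1 point per gene, filled where the gene passed the test (red higher, blue lower), with a bar for the median. The medians of the 10 genes, the other pericentral and the periportal genes are -0.17, -0.48 and -0.24, that of the other Wnt targets is 0.62, and *Dkk4* is counted but not drawn because its g*Spns1*-cKO libraries were at 0.

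The other genes of glutamine, glutamate and ammonium handling numbered 28, of which 24 were tested, 5 were higher and 8 were lower, or 8 higher and 1 lower with library size only. *Slc1a4*, a neutral amino acid transporter, rose from 2.97 to 21.9 CPM (2.88, edgeR adjusted p = 7.14e-05). *Slc38a3*, a glutamine transporter, fell from 1963 to 1020 CPM (-0.94, edgeR adjusted p = 0.00113). *Slc1a3*, a relative of *Slc1a2*, was called higher on 0 to 5 counts per control library and 12 to 22 per g*Spns1*-cKO library, and leaving out any 1 library ended that call (1.44 to 2.66). Of the 28 listed, 8 had the g*Spns1*-cKO livers all above the controls and 10 had them all below. Groups did not overlap for 54.1% of all tested genes. They did not overlap for *Slc38a3*, nor for *Slc1a4*, which was named for its large fold change. Of the 10 genes, *Oat* did not overlap either, and *Glul*, *Rhbg* and *Slc1a2* did.

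*Cyp1a2* was also set beside other genes of the aryl hydrocarbon receptor pathway. Of 9 listed, 7 were tested, 4 were higher and 1 was lower. *Cyp1b1* rose from 0.992 to 4.17 CPM (2.06), *Nqo1*, which is also a target of NRF2, from 5.996 to 19.0 CPM (1.67), and *Tiparp* from 6.20 to 11.3 CPM (0.87, edgeR adjusted p = 0.00117). *Ahr*, the receptor, did not pass (46.3 and 64.4 CPM, edgeR adjusted p = 0.0800) but did in 5 of 13 alternatives, with either other scaling and without control replicate 3 (0.70) among them. *Arnt*, its partner, passed at 0.34 but not with DESeq2 (0.33). It also did not pass without control replicates 2 (0.31) or 3 (0.26) or g*Spns1*-cKO replicates 2 (0.30) or 3 (0.35). *Cyp1a1* (0.897 and 1.27 CPM) did not pass. The GCGTG core of the dioxin response element was in none of the windows of *Cyp1a2* searched, and it was in 28.2% of all windows.

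Markers of cell types moved with genotype, and in bulk liver fewer cells of a type and less RNA per cell cannot be told apart. The summed level of 8 hepatocyte markers was 104873 to 115057 CPM in control and 63711 to 73042 CPM in g*Spns1*-cKO livers, with 0 higher and 4 lower (2 higher and 0 lower with library size only). That of 10 macrophage markers was 144 to 217 against 633 to 889 CPM (10 of 10 higher), that of 10 stellate cell and fibroblast markers 208 to 244 against 572 to 611 CPM (8 of 10 higher, or 5 without control replicate 3 or without g*Spns1*-cKO replicate 3), and that of 8 cholangiocyte markers 59.5 to 77.8 against 187 to 300.04 CPM (6 of 7 tested higher). Most of the cholangiocyte sum came from *Spp1*, which had a mean of 4308.5 counts over the libraries. As a share of all counts, without TMM, the hepatocyte markers made up 8.76 to 9.95% in control and 7.37 to 8.59% in g*Spns1*-cKO livers, lower in all 3. The sum of 9 endothelial markers was 251 to 278 against 326 to 389 CPM (5 of 9 higher), and that of 7 central vein endothelial markers, which include *Wnt2*, *Wnt9b* and *Rspo3*, 22.3 to 30.4 against 36.6 to 42.8 CPM (3 higher and 1 lower, *Cdh13*, whose call was lost without any 1 of the 6 libraries). The sum of 6 proliferation markers overlapped, at 29.2 to 39.4 and 34.7 to 51.5 CPM. None of these markers was at 0 in all libraries, and the part of these shifts in the values of the 10 genes was not tested.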

How the data were processed

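RNA from 6 livers (3 g*Spns1*-cKO, 3 control) was enriched for poly-A RNA and sequenced by a commercial service. The authors deposited whole-number counts per gene, not normalized, and FPKM, counts per transcript length and library total. Per the labels, reads were processed with fastp, HISAT2 2.0.5 and featureCounts 1.5.0-p3 on mm10 (GRCm38). The strand setting and the test for these data were not given in the sources used here. The deposited table also holds 5 columns of the authors' own comparison, a scaled signal for each group, p-values raw and adjusted, and a log2 fold change. They were not used.

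Counts were tested in R 4.3.3 with edgeR 4.0.16 (quasi-likelihood, robust, TMM, filterByExpr by genotype, no covariate, Benjamini-Hochberg over the 15449 genes tested of 54532, threshold 0.05). The standard error is the log2 fold change over the square root of F, and 95% intervals come from it. Sequencing reads had no molecular identifiers, so floors cover counting error only. The 3 libraries of a group are separate mice, and the lowest chi-square per gene between 2 of them was 41.1, so none was a duplicate. For a single gene, an exact two-sided permutation test of 3 mice against 3 cannot go below 0.1 and was not used. FPKM served for order between genes. Coordinates in the table matched GENCODE M21 (GRCm38) for 10 of 10 genes. Promoters are RefSeq windows of GRCm38.p6. Genes that overlap on opposite strands (*Slc22a3* with *Plg*, *Ccnd1* with *Oraov1*, *Wnt5b* with *Fbxl14*) and close paralogs (*Cyp3a11*, *Cyp2a5*, *Gstm3*) may share reads. The planned comparison of protein sequences was not made.

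The 10 genes, gene lists and naming rule were chosen with earlier results of these data known. Named were the 10 genes, *Spns1*, and from each list the 3 called genes with the largest fold change, the 2 most abundant, and Wnt ligands and R-spondins of at least 0.5 CPM. *Fzd4*, *Fzd5*, *Sp5*, *Cdh13*, *Slc13a3*, *Cyp1a1*, *Gldc*, *Sox9*, *Fgfr2* and *Tbx3os1* were named after their values were seen. One gene that the rule selects is not reported here. Alternatives were library size only, upper-quartile scaling, DESeq2 1.42.0, limma-voom (limma 3.58.1), 2 filters on low values (1 or more counts in any library, 10 or more in every library), a replicate block and leaving out each library in turn, 13 in all. The test was checked on simulated data with 200 changed genes, as many raised as lowered. That check could not show how far the scaling affects these results.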

Additional observations from a re-analysis of the deposited data

How the results depend on the processing

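*Tbx3* stayed lower and past the threshold in all 13 alternatives. With library size only, where the median of all genes was 0.46, 7289 genes were higher and 970 lower (88.3% of calls higher, against 50.9% with TMM and 64.7% with upper-quartile scaling). The 10 genes then had 2 higher and 1 lower, with *Glul* at 0.28, *Oat* at -0.41, *Axin2* at 0.89, *Lgr5* at 0.33, *Rnf43* at 0.20, *Znrf3* at 0.58, *Rhbg* at 0.24, *Slc1a2* at 0.27 and *Cyp1a2* at 0.29. *Spns1* was at -0.43, *Wnt5b* at 0.12, *Porcn* at 0.17, *Rspo1* at 0.091, *Lrp6* at 0.076, *Kremen1* at 0.11, *Wnt9b* at 0.32 and *Fzd4* at 0.036. Other pericentral genes numbered 5 higher and 4 lower, and periportal genes 10 higher and 3 lower. With upper-quartile scaling the 10 genes had 1 higher (*Axin2* 0.58) and 1 lower (*Tbx3* -1.41), while *Oat* (-0.73) and *Lgr5* (0.013) were not called. There *Spns1* was at -0.74, *Wnt9b* at 0.0049, and 3 other pericentral genes were higher. That number was 3 with DESeq2, 4 with at least 1 count in any library, 2 with at least 10 counts in every library, where other Wnt targets had 1 lower because fewer genes were tested, 3 with limma-voom and 3 with the replicate block.

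Whether replicate numbers pair the mice could not be decided from 3 mice per group. Same-numbered libraries had deviations correlated at 0.037, 0.033 and -0.028, against -0.065 to 0.032 for the other pairs. The values of replicates 1 and 2 lay just above that range. The libraries of replicates 1 and 2 correlated best with their own number, and those of replicate 3 did not. The replicate block called 3084 genes higher and 3016 lower, and 1 of the 10 genes (*Oat* at -0.87 lost its call).

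Leaving out each library in turn gave 0 to 1 of the 10 genes higher and 1 to 2 lower, with *Oat* from -1.07 to -0.63, *Axin2* from 0.35 to 0.62, *Lgr5* from -0.29 to 0.070, *Rhbg* from -0.84 to 0.083 and *Spns1* from -1.18 to -0.68. *Lgr5* turned without control replicate 3 and *Rhbg* without g*Spns1*-cKO replicate 2. *Wnt2* ranged from -0.10 to 0.25, *Wnt2b* from -0.082 to 0.25, *Wnt9b* from -0.37 to 0.054 and *Rspo1* from -0.66 to 0.13, none past the threshold. Other pericentral genes higher were 1 to 4, periportal genes lower 7 to 11 and other Wnt targets higher 4 to 8. The periportal count was 7 without g*Spns1*-cKO replicate 3, and the Wnt target count 4 without control replicate 2. Except where stated, the cause was not tested.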

Other observations

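Some genes of the pericentral and ammonium lists varied widely among the g*Spns1*-cKO livers, and were picked out after their values were seen. *Gstm3*, a glutathione transferase, had 1565, 757 and 784 counts in control and 14151, 2809 and 5544 in g*Spns1*-cKO livers (edgeR adjusted p = 0.0700). *Cyp2a5* counts were 15966, 10253 and 18892 in controls against 14371, 71559 and 45903 with *Spns1* deleted. *Aqp8*, a water channel that also passes ammonia, had 10771, 4322 and 3935 counts in control and 7782, 746 and 2533 in deleted livers. *Cldn2*, a tight junction gene of the pericentral zone, had 5253 counts in the first g*Spns1*-cKO liver, the one with the highest *Glul*, and 2678 and 2535 in the other two, against 1992 to 2701 in control livers. That first liver also had the lowest summed level of the 23 other pericentral genes, at 14193 CPM. The other g*Spns1*-cKO livers were at 19122 and 16424 CPM. The counts in this paragraph are not scaled, so they do not compare levels between the groups.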
